A study of Mus musculus with 18 samples.

Results

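The clustered replication-dependent histone genes were followed in leukemia stem cells from 9 mice. Members were all rows of the deposited table whose gene symbol was an older Hist1 to Hist4 name or its newer equivalent, pseudogenes left out. This gave 67 genes of the 54347 in the table: 6 H1, 18 H2A, 18 H2B, 12 H3 and 13 H4 genes. On GRCm38, 31 lay in the distal part of the chromosome 13 cluster (13, 23531050 to 23934851), 23 in its proximal part (13, 21715763 to 22043676) and 10 in the chromosome 3 cluster (3, 96219865 to 96270132). The remaining 2 genes on chromosome 11 and 1 on chromosome 6 were small outlying loci. Of the 67, 62 had 1 annotated transcript.

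For each C57BL/6JRj mouse, 7000 leukemia stem cells were sorted from marrow at day 30 of induced leukemia. The mutant group, labelled Prx1-Cxcl12-mutant, held 5 mice (6, 7, 8, 10 and 12) and the control group, labelled Prx1-Cxcl12-wild type, held 4 (1 to 4). Each mouse gave 2 technical libraries, read at the 3′ end of polyadenylated RNA by MARS-seq. The alleles behind the genotype names, the driver of the leukemia, the sorting markers, and the sex and age of the mice are not known from the labels. Prx1 (Prrx1) is active in mesenchymal cells, and Cxcl12 encodes a chemokine made by marrow stromal cells. Total counts ran from 11766467 to 25485899 per mouse and averaged 20734088 ± 4170598 (SD, n = 5) in mutants and 15160572 ± 2307737 (SD, n = 4) in controls. A level of 3 counts, taken as the floor of detection, was 0.120 to 0.237 CPM (counts scaled to a common total of 1000000 with TMM factors). All 12 genes of a progenitor and myeloid list reached that floor, among them the granule protease gene Elane and the stem cell factor receptor gene Kit. Of 10 stromal and endothelial markers, Prrx1, Pdgfra and Cdh5 stayed under 3 counts in every mouse, and Cxcl12 reached at most 4 counts, so the targeted gene could not be checked in these cells.

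Replication-dependent histone genes supply the H2A, H2B, H3 and H4 of the nucleosome core and the linker histone H1 while DNA is copied. Their mRNAs are made mainly in S phase, are mostly unspliced, and as a rule end in a conserved stem-loop, bound by the stem-loop binding protein SLBP, in place of a poly(A) tail. Many of the genes are near-identical copies, so that reads can be shared between them. The libraries were made from polyadenylated RNA, and what share of each histone mRNA was captured was not measured.

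The stem-loop is shown here because it is the feature that members share and because the bases in front of it differed for the 3 members with the highest levels. The histone stem-loop consensus (16 bases, 7 of them left free to vary) was searched on the transcript strand in the first 100 bases after the stop codon. It was found in 46 of the 50 members with at least 50 annotated bases after the stop codon. None of the 17 with fewer held it, but most of these had 0 to 2 annotated bases there, too few for a match. Among 20626 other protein-coding genes it was found in 17 (0.0824%), H2afx included. The match began 22 to 59 bases after the stop codon, and its 16 bases took 8 forms, of which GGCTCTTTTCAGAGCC (26 members) and the H4 form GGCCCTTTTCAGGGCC (7 members) were the most common. The stem-loop is in capitals below, with the 14 transcript bases before it in lower case (GENCODE mouse release 21, GRCm38).
Hist1h2ap: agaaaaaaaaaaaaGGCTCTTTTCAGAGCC
Hist1h2ao: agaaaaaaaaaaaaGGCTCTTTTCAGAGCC
Hist1h2ae: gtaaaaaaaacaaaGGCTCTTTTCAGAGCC
Hist1h2ag: tgatcgccaacaaaGGCTCTTTTCAGAGCC
Hist1h2bj: acaccaaatccaaaGGCTCTTTTCAGAGCC
Hist1h3c: gctatttaaaaaaaGGCTCTTTTAAGAGCC
Hist1h4f: gcttctttctcaaaGGCCCTTTTCAGGGCC
Hist1h1c: ctaacaatccaaaaGGCTCTTTTCAGAGCC

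The H2A genes Hist1h2ap and Hist1h2ao carried a run of 12 A and Hist1h2ae a run of 8 A between stop codon and stem-loop. No other member with the stem-loop had a run of 8 or more there, and the longest was 7, in the H3 gene Hist1h3c. Counted anywhere in the annotated transcript, 7 members had a run of 8 or more A. Besides Hist1h2ap, Hist1h2ao and Hist1h2ae, these were Hist1h2ac (15 A), Hist1h2be (11 A), Hist1h2bc (8 A) and Hist1h1d (8 A). In that order, the latter averaged 23.27, 27.96, 63.74 and 84.48 CPM in controls. In mutants they averaged 23.72, 29.3, 64.79 and 82.24 CPM. Hist1h2ap, Hist1h2ao and Hist1h2ae had the highest levels of all 67 members. Hist1h2ap and Hist1h2ao are close copies that can share reads, so their levels are not independent of each other. Hist1h2ap ranked 50 in mean CPM among all genes of the table, Hist1h2ae 230 and Hist1h2ao 323. The other 43 members with the stem-loop had mean levels of 0 to 116.4 CPM, with a median of 20.7 CPM. The pattern was noticed after the levels were seen, and what part the A run has in the measured level was not tested.

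**Figure D1:**
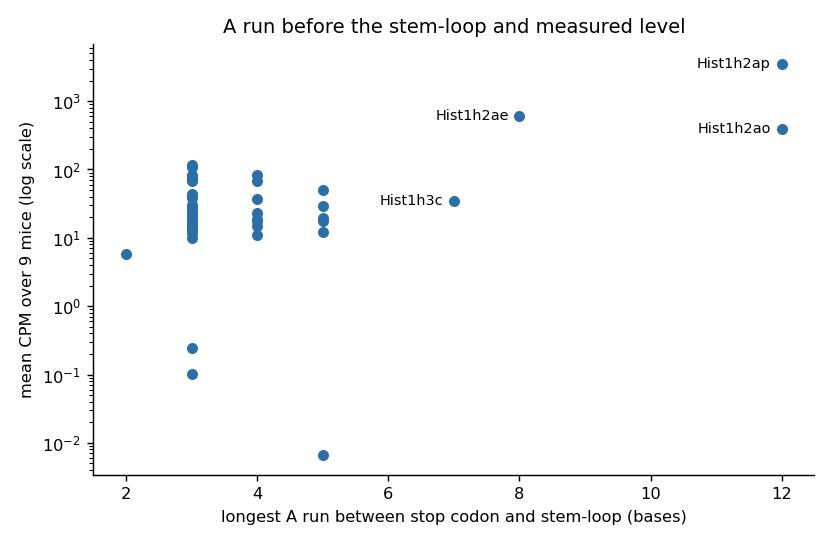
Mean level over 9 mice (CPM, log scale) against the longest run of A between stop codon and stem-loop (bases), for the 45 members with a stem-loop and at least 1 count. Hist1h2ap and Hist1h2ao (12 A) and Hist1h2ae (8 A) lie above all others, which reach at most 116.4 CPM. Hist1h2ap and Hist1h2ao are close copies that can share reads.

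The comparison of mutant with control mice asked whether histone mRNA in the leukemia stem cells differed with the genotype. Summed over all 67 members, histone mRNA was 5317 ± 714.8 CPM (SD, n = 4) in controls and 7127 ± 298 CPM (SD, n = 5) in mutants, a log2 difference of 0.43 (SE 0.10). The controls read 5819, 6042, 4754 and 4654 CPM and the mutants 7196, 7072, 7596, 6964 and 6809 CPM, so the groups did not overlap. The H2A family made up most of this sum and most of its difference. In bulk polyadenylated RNA, more cells in S phase, more histone mRNA per cell and a larger captured share of it cannot be told apart. As a share of all counts, members took 0.539 ± 0.0905% (SD, n = 4) in controls and 0.706 ± 0.0229% (SD, n = 5) in mutants.

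Gene by gene, 61 members passed the filter on low counts and were tested with all 12973 genes. The 6 that did not pass were Hist1h1t, Hist1h2aa, Hist1h2ba, Hist1h4m, Hist2h3c1 and Hist3h2ba, of which Hist1h2ba and Hist2h3c1 had no count in any mouse. No member was called at an adjusted p under 0.05 by edgeR's quasi-likelihood test, against 0.0694% of all genes tested, and 0.0231% called higher in mutants. Without adjustment, 5 members passed p under 0.05 with higher values in mutants, against 4.96% of all genes, and 0 with lower values, against 4.89%. DESeq2 called 1 member, Hist1h2ap, against 0.777% of the genes it tested. The log2 fold change was above 0 in 44 of 61 members (72.1%), against 51.7% of all genes, with a median of 0.083 over members and 0.009 over all genes. That count depended on single mice: it was 57 without control 1, 52 without control 2, 29 without control 3, 20 without control 4 and 32 without mutant 8.

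**Figure D2:**
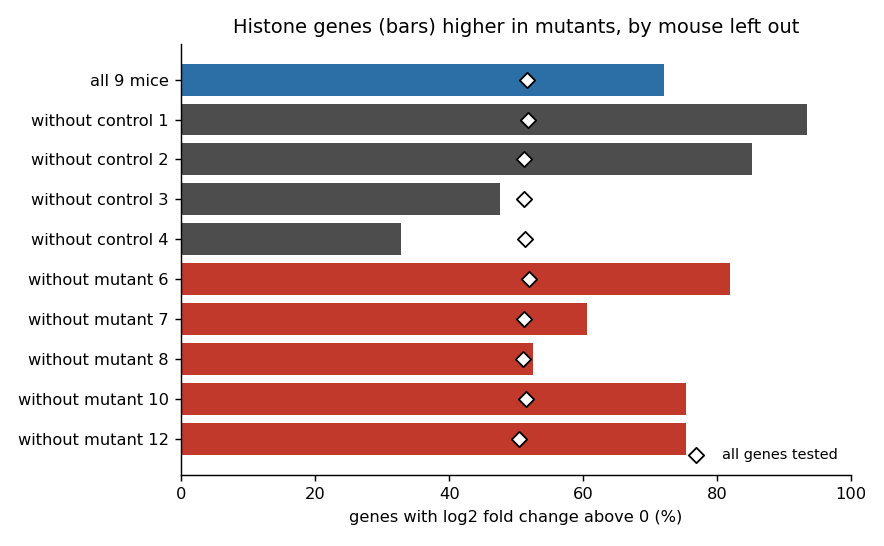
Share of tested histone genes with a log2 fold change above 0 (%, bars) for all 9 mice and with each mouse left out in turn, with the same share over all genes tested as diamonds. The bar for all mice stands at 72.1%, and the diamonds stay close to 51.7% while the bars move with the control left out.

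The control mice differed among themselves in most members. In 57 of the 61 tested members (93.4%), control 1 or 2 had the highest and control 3 or 4 the lowest level of the controls, an order found in 33.2% of all tested genes. This split was noticed in the data, follows no label and is given without a test. The 4 exceptions were Hist1h2ap, Hist1h2bq, Hist1h3h and Hist2h2aa1. Among the 52 members with a control mean of at least 10 CPM, the median coefficient of variation was 45.9% in controls and 21.9% in mutants, whereas over the 7535 genes at that level it was 10.5% and 11.8%. In 35 of 61 members (57.4%) every mutant value lay within the range of the controls, against 14.3% of all genes. The S phase list described below did not share the order: 14 of its 38 genes (36.8%) showed it.

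H2A was the family whose sum separated the groups. Its 18 members together read 3835, 4236, 3752 and 3823 CPM in the controls and 5887, 5521, 5801, 5489 and 5449 CPM in the mutants. The means were 3911 ± 219.4 CPM (SD, n = 4) and 5630 ± 200.1 CPM (SD, n = 5), a 1.44-fold difference (log2 0.53, SE 0.046). The SD of the H2A sum was 219.4 CPM in controls against a difference of means several times that size, and controls 1 and 4 were almost level. Gene by gene, 15 of the 17 tested H2A genes still showed the split of the controls, the exceptions being Hist1h2ap and Hist2h2aa1. Among 17 tested H2A genes the median log2 fold change was 0.17, and 13 (76.5%) were above 0, against 51.7% of all genes.

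**Figure D3:**
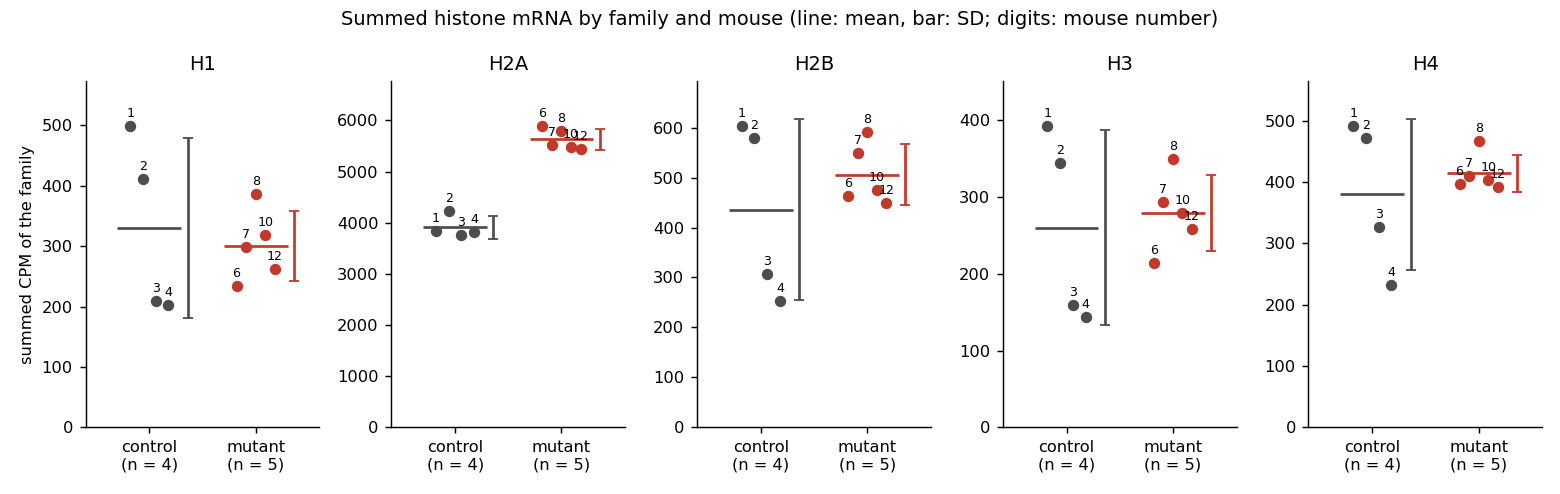
Summed level of each histone family in each mouse (CPM), with group mean (line) and SD (bar); digits are mouse numbers, n = 4 controls and 5 mutants. Only in H2A do the groups stand apart (3752 to 4236 against 5449 to 5887 CPM). Controls 1 and 2 lie above controls 3 and 4 in every family, though in H2A controls 1 and 4 are almost level.

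Hist1h2ap (ENSMUSG00000094777; 13, 21833026 to 21833507, minus strand, 1 exon) carried most of that sum. Its level was 2411, 2944, 2929 and 2830 CPM in the controls and 4681, 4103, 4200, 4141 and 3689 CPM in the mutants. Every mutant lay above every control, as did every one of the 10 mutant libraries (3354 to 5028 CPM before TMM scaling) above the 8 control libraries (2175 to 3068 CPM). The means were 2778 ± 250.2 CPM (SD, n = 4) and 4163 ± 353 CPM (SD, n = 5), a log2 fold change of 0.58 (SE 0.098) with an edgeR adjusted p of 0.0798, which misses the threshold. DESeq2 gave the same gene a log2 fold change of 0.58 (SE 0.099) with an adjusted p of 7.0e-06. The gene accounted for 41.4 to 65.0% of all histone counts in a mouse.

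Hist1h2ao (ENSMUSG00000094248; 13, 21810465 to 21810944, plus strand) is its close copy and is named for that reason, chosen after its values were seen. The copies share 93.4% of the 31-base words of Hist1h2ap, and only 6.6% of those words are found in no other gene. Hist1h2ao read 457.6, 342.5, 186.5 and 308.3 CPM in controls and 301.5, 452.8, 367.1, 351.1 and 810.8 CPM in mutants, with the groups overlapping (log2 fold change 0.50, SE 0.30, edgeR adjusted p = 0.596). How reads were divided between the copies differed between libraries, with Hist1h2ap taking 74.6 to 94.3% of their sum. Summed, the pair read 3102 ± 173.2 CPM (SD, n = 4) in controls and 4619 ± 205.6 CPM (SD, n = 5) in mutants. When the pair was fitted as 1 gene, an alternative added after seeing the data, the log2 fold change was 0.57 (SE 0.082) and edgeR's adjusted p was 0.0306, past the threshold.

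Hist1h2ae (ENSMUSG00000069272; 13, 23570517 to 23571220, minus strand), the third member with an A run before the stem-loop, lies in the distal cluster. Controls read 581.4, 587.6, 430.5 and 522.5 CPM and mutants 622.6, 589.7, 857.5, 688.2 and 659.3 CPM. The groups did not overlap, although control 2 and mutant 7 were almost level. Single libraries did overlap (402 to 782.4 CPM in controls and 408.2 to 937.1 CPM in mutants, before TMM scaling), and those of mutant 7 differed by 1.005 on the log2 scale. Its log2 fold change was 0.37 (SE 0.13, edgeR adjusted p = 0.388), and 0.22 (SE 0.21) with first libraries only. Hist1h2ap and Hist1h2ae were the 2 members whose mutants all lay above the controls, against 1.87% of all genes tested, and 0 lay wholly below, against 2.13%. Their coefficients of variation among controls were 9.01% and 13.7%, while that of Hist1h2ao was 34.5% and that of Hist3h2a, an H2A gene without an A run, 9.82%.

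Among H2A genes without an A run, Hist1h2ag (13, 22042460 to 22042944, minus strand) read 66.0, 72.9, 48.0 and 32.6 CPM in controls and 89.7, 90.6, 92.6, 78.6 and 60.8 CPM in mutants. Mutant 12 fell inside the control range and the other mutants above it (log2 fold change 0.59, SE 0.21, edgeR adjusted p = 0.379). It shares 73.0% of its 31-base words with Hist1h2ap, and 20.2% are found in no other gene, so reads can be shared between the 2. Without Hist1h2ap, the other 17 H2A genes summed to 1133 ± 274.6 CPM (SD, n = 4) and 1467 ± 216.7 CPM (SD, n = 5), a log2 difference of 0.39 (SE 0.20) with overlapping groups. Without the 3 members with an A run before the stem-loop, 15 H2A genes were left. They summed to 278.8 ± 111.6 CPM (SD, n = 4) and 326.7 ± 46.4 CPM (SD, n = 5), a log2 difference of 0.31 (SE 0.32). For all families together the difference fell to 0.20 (SE 0.32) without those 3.

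**Figure D4:**
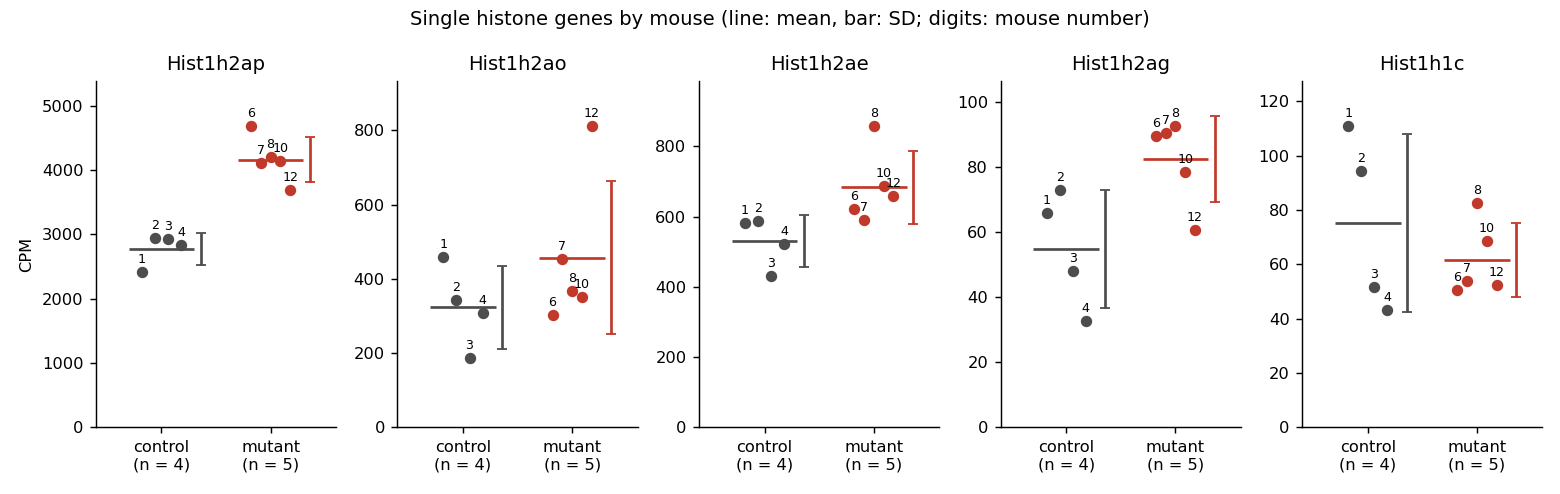
Level of 5 histone genes in each mouse (CPM), with group mean (line) and SD (bar); digits are mouse numbers, n = 4 controls and 5 mutants. Hist1h2ap and Hist1h2ae separate the groups, Hist1h2ao and Hist1h2ag overlap, and for Hist1h1c controls 1 and 2 lie above every mutant.

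H2B, the partner of H2A in the nucleosome, summed to 602.7, 578.7, 307.6 and 253.5 CPM in controls and 463.7, 549.7, 591.4, 474.8 and 449 CPM in mutants. Every mutant lay within the range of the controls, and the log2 difference of 0.31 had an SE of 0.33. In 14 of 16 tested H2B genes (87.5%) the log2 fold change was above 0, against 51.7% of all genes. The median was 0.10 and the smallest edgeR adjusted p 0.510. Hist1h2bj, which shares its upstream region with Hist1h2ag, read 95.3, 85.6, 48.4 and 41.95 CPM in controls and 92.2, 113.9, 109.3, 77.8 and 80.8 CPM in mutants, which overlapped with controls 1 and 2 (log2 fold change 0.49, SE 0.23). Hist1h2bf (log2 fold change 0.55, SE 0.27) and Hist1h2bm (0.42, SE 0.22) had values of the same order, and Hist1h2bk, one of the highest H2B genes, had 0.10 (SE 0.23). Without control 4 the first 3 fell to 0.31, 0.32 and 0.24.

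H3 and H4 form the core tetramer of the nucleosome. The H3 genes summed to 391.7, 344.4, 159.6 and 144.2 CPM in controls and to 214.4, 293.2, 349.5, 278.3 and 257.5 CPM in mutants, a log2 difference of 0.22 (SE 0.39). Of 11 tested H3 genes 6 were above 0, and the smallest edgeR adjusted p was 0.507, for Hist2h3b (23.8 ± 8.71 CPM, SD, n = 4, against 32.5 ± 3.66 CPM, SD, n = 5). Hist1h3h had the lowest log2 fold change of all members, -0.86 (SE 0.67), which rested on control 3 at 9.94 CPM, the other controls being at 0.593 to 1.66 CPM. Without control 3 its log2 fold change was 0.58. Hist1h3g (0.24, SE 0.33), Hist1h3c (0.27, SE 0.18) and Hist1h3a (-0.03, SE 0.24) did not pass the test either.

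The H4 genes summed to 490.7, 471.6, 326.1 and 232 CPM in controls and to 396.6, 409.3, 467.2, 403.6 and 392.1 CPM in mutants, a log2 difference of 0.18 (SE 0.26). Of 12 tested H4 genes 10 (83.3%) were above 0, against 51.7% of all genes, with a median of 0.07 over the H4 genes. Hist1h4f had the highest log2 fold change of all members, 0.81 (SE 0.26, edgeR adjusted p = 0.344), at the low level of 6.397, 11.0, 5.11 and 5.04 CPM in controls and 12.1, 16.6, 12.95, 7.99 and 11.0 CPM in mutants. The H4 genes with the highest levels, Hist1h4i (113.7 ± 20.0 against 118.6 ± 18.6 CPM, SD, n = 4 and 5) and Hist1h4n (98.3 ± 42.1 against 115.1 ± 8.39 CPM), differed by less than the spread between mice, and Hist2h4 had a log2 fold change of 0.19 (SE 0.31).

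**Figure D5:**
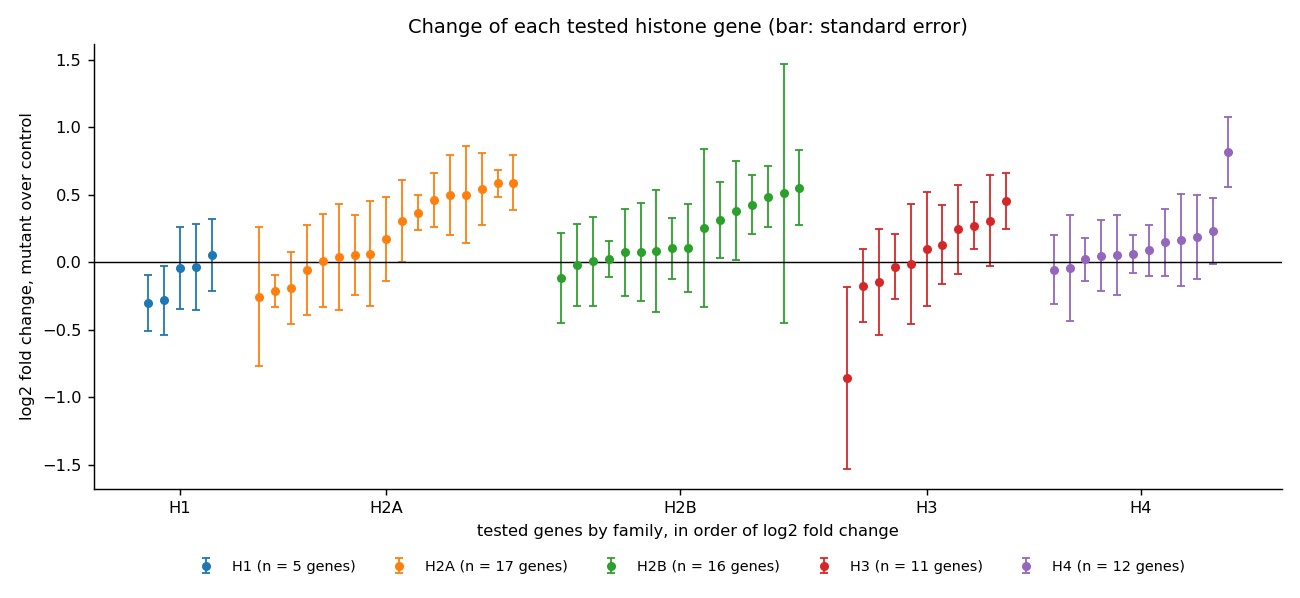
Log2 fold change, mutant over control, with its standard error for each of the 61 tested histone genes, ordered within families (5 H1, 17 H2A, 16 H2B, 11 H3 and 12 H4 genes). Values run from -0.86 (Hist1h3h) to 0.81 (Hist1h4f), and no gene was called by edgeR.

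H1 linker histones bind the DNA entering and leaving the nucleosome. Of 5 tested H1 genes 1, Hist1h1b, was above 0, and the median was -0.05. Their sum was 498.5, 411.1, 208.7 and 202 CPM in controls and 234.3, 298, 386.1, 318 and 261.8 CPM in mutants, a log2 difference of -0.05 (SE 0.36). Hist1h1e (log2 fold change -0.30, SE 0.21), Hist1h1c (-0.28, SE 0.25) and Hist1h1d (-0.04, SE 0.31) showed the same split of the controls, and all 5 tested H1 genes had every mutant within the control range. Without control 1, Hist1h1e was at -0.079 and Hist1h1c at -0.036, and the H1 sum at 0.19.

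The agreement of the technical libraries of a mouse differed between members. The median absolute log2 ratio between them was 0.278 over the 61 tested members and 0.252 over all tested genes, and it was 0.195 over genes with a mean of at least 10 CPM. It was 0.145 for Hist1h2ap. The H2B copies Hist1h2bq and Hist1h2br, which share 98.3% and 89.5% of their 31-base words, had ratios of 5.35 and 4.38, while their sum had 0.389, so the division of reads between these copies was unstable. Without them, 12 of 14 tested H2B genes were above 0. Over all members a median of 41.5% of 31-base words were found in no other gene, and 10 members had under 10%.

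Many H2A and H2B genes lie head to head and share an upstream region. There were 13 such pairs with at most 1000 bases between the genes, 12 of them an H2A and an H2B gene. In 12 pairs both genes were tested, and in 10 of these both had a log2 fold change above 0, in 2 the signs differed, and in 0 both were below. Leaving out the pairs that hold Hist1h2bq or Hist1h2br, both genes were above 0 in 8 of 10. Single genes were above 0 in 72.1% of tested members and 51.7% of all genes. The pairs were not recounted with single mice left out. Within a pair the levels could differ widely: Hist1h2ae averaged 530.5 CPM and its partner Hist1h2bg 40.4 CPM in controls. The bases between that pair are shown because both genes start from them, on the strand of Hist1h2ae (RefSeq, GRCm38.p6, chr13:23571221-23571395, minus strand), with the CCAAT box, the TATA box and the octamer, found on either strand and spelled out in the next paragraph, in capitals.
Hist1h2ae to Hist1h2bg: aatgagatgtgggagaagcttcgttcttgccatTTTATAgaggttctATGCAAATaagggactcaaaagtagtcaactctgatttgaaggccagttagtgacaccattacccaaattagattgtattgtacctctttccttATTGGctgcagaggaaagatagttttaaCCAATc

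RefSeq promoter windows of 300 bases (250 before and 50 after the start) were matched to 61 members. CCAAT, the core of the site bound by NF-Y, was present on either strand in 85.2% of them and in 37.4% of all 32851 windows; it was in every matched H1, H2A, H2B and H3 window and in 3 of 12 H4 windows. TATAAA was present in 55.7% against 13.6%. The octamer ATTTGCAT, a site of the POU factor Oct-1, was present in 21.3% against 1.74%, in 7 of 18 H2A and 6 of 16 H2B windows and in no window of the other families. Windows of head-to-head genes can overlap, so that 1 site is counted for both genes, as the octamer of Hist1h2ae and Hist1h2bg was. The windows of Hist1h2ap and Hist1h2ao held 3 CCAAT each and neither of the other words. By locus, 19 of 22 tested genes of the proximal cluster were above 0 (86.4%, median 0.12) and 19 of 28 of the distal cluster (67.9%, median 0.07). On chromosome 3 it was 5 of 9 (55.6%), against 51.7% of all genes. Over all members this count moved with the control left out, and it was not recounted by locus.

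Genes that act with the histone genes were read from 4 lists, none of which had a member called by edgeR. Of 38 S phase genes, which copy DNA and make its building blocks, 31 (81.6%) were above 0 on the log2 scale, against 51.7% of all genes. The median over the list was 0.13. Thymidine kinase Tk1 went from 134.8 ± 8.28 CPM (SD, n = 4) to 180.3 ± 10.3 CPM (SD, n = 5) with no overlap (log2 fold change 0.42, SE 0.084). Its edgeR adjusted p was 0.138, while DESeq2 called it with an adjusted p of 7.4e-04. The cyclin E gene Ccne2 had a log2 fold change of 0.48 (SE 0.18). The S phase sum was 3838 to 4176 CPM in controls and 4171 to 4474 CPM in mutants.

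Of 18 genes of histone mRNA transcription and processing 12 were above 0 (median 0.08). Cstf2, a cleavage factor subunit, had a log2 fold change of 0.26 (SE 0.087), with an edgeR adjusted p of 0.369. Casp8ap2 had 0.34 (SE 0.14). Of 11 replication-independent variants, whose genes as a rule give polyadenylated mRNA, 6 were above 0. H2afx, which marks DNA breaks when phosphorylated and whose gene also carries the stem-loop pattern, was 686.8 ± 30.9 CPM (SD, n = 4) in controls and 562.8 ± 67.5 CPM (SD, n = 5) in mutants (log2 fold change -0.29, SE 0.10, edgeR adjusted p = 0.386), with no overlap. H2afj had -0.23 (SE 0.10). Of 20 chaperone and assembly genes 11 were above 0. The H2A.Z chaperone gene Anp32e had 0.38 (SE 0.12) and the H3-H4 chaperone gene Asf1a 0.21 (SE 0.11), and neither passed the test.

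Marker lists of other cell types were summed per mouse, and their part in the histone values was not tested. The summed level of 10 neutrophil genes was 453.2 to 973.5 CPM in controls and 228.4 to 471.9 CPM in mutants. The granule gene Camp had means of 386.4 and 139.2 CPM. Means of Ngp, S100a8, S100a9 and Mmp9 were also lower in mutants. Those of Ltf (4.82 and 13.5 CPM), Lcn2, Mmp8, Cxcr2 and Retnlg were higher. Each of the 10 reached the floor in at least 1 mouse, and Retnlg and Mmp8 were under it in some. The 9 erythroid genes summed to 6.81 to 52.9 CPM in controls and 17.7 to 61.3 CPM in mutants, and Alas2 and Car1 were at 0 in at least 1 mouse. Of 9 T and NK cell genes, Cd3e, Cd3g, Cd4 and Ncr1 were under 3 counts in every mouse, and Nkg7 alone, at means of 126.2 and 135.8 CPM, made up nearly the whole sum. Of 10 stromal and endothelial genes, Pecam1 (43.6 and 37.4 CPM) and Pdgfrb (6.62 and 4.50 CPM) held most of the sum. Among 9 B cell genes Cd79b (61.8 and 53.5 CPM) did. The macrophage sum (89.7 to 107 and 74.9 to 114 CPM) lay in Adgre1, Cd68 and Vcam1, and C1qa, C1qb and C1qc averaged under 1 CPM.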

How the data were processed

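The authors deposited 1 table of estimated counts (54347 genes, 18 libraries), which is not normalized. Per the submitters' processing notes, bcl2fastq, FastQC, Salmon 1.3 and GRCm38 were used; no source used here gives the annotation release, strand setting or use of molecular identifiers. Salmon divides reads among near-identical copies, so single histone genes are less certain than their sums. For each mouse, estimated counts were added over its 2 libraries and rounded. IDs were matched by their first 18 characters to GENCODE mouse release 21 (54094 with a symbol). Tests used edgeR 4.0.16 under R 4.3.3 (filterByExpr, minimum count 10, TMM, quasi-likelihood F-test, 2-sided, Benjamini-Hochberg over 12973 genes, called at an adjusted p under 0.05), on 5 mutant and 4 control mice. Standard errors are log2 coefficients over the root of F. Family sums are TMM-scaled CPM, given without a test. The script was tested on simulated data. DESeq2 1.42.0, limma 3.58.1, other scaling and filters, single technical libraries and leaving out each mouse were tried.

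In each family the text names every called gene, the 3 tested genes with the smallest p and the 2 with the highest mean CPM, and in each of the 4 gene lists the 2 with the smallest p and any called. Other genes are named for their sequence, copies or position. The members and lists were chosen with earlier results of these data known. Floors of 3 counts cover counting error only.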

Additional observations from a re-analysis of the deposited data

Results flagged for a closer look

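Of 68 groups of mice looked at for the named genes and family sums, 4 held 1 mouse far from the rest, where chance gives about 1 in 20. Hist1h3c was at 47.4 CPM in mutant 8 and at 33.7 to 37.3 CPM in the other mutants. The H4 sum was 467.2 CPM in the same mouse and 392.1 to 409.3 CPM in the others. Hist1h3h was at 9.94 CPM in control 3 and at 0.593 to 1.66 CPM in the other controls. H2afx was at 732.7 CPM in control 4 and at 666.2 to 677.2 CPM in the other controls.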

How the results depend on the processing

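edgeR called 9 genes in all and 0 members. DESeq2 called 93 genes, 1 of them a member (Hist1h2ap) and 1 in the partner lists (Tk1). The total was 21 without a count filter, 3 with second libraries only, and 0 with first libraries only, with a mean of at least 10 CPM, with mutant 7 lacking its first library, or with total count as a covariate. With each mouse left out it ranged from 0 to 7, and members above 0 from 20 (without control 4) to 57 (without control 1). edgeR and limma-voom called no member in any of these settings; only the sum of Hist1h2ap and Hist1h2ao, added after seeing the data, was called by edgeR. Hist1h2ap kept its direction throughout, with log2 fold changes of 0.48 (covariate) to 0.72 (first libraries).

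The H2A log2 difference was 0.60 in first libraries, 0.39 without Hist1h2ap and 0.31 without the 3 members with an A run before the stem-loop. Over all members the last 2 settings gave 0.28 and 0.20. The sums of H1, H2B, H3 and H4 moved by less than the SD between mice, but leaving out single mice gave -0.24 to 0.19 for H1, 0.083 to 0.50 for H2B, -0.014 to 0.46 for H3 and -0.032 to 0.33 for H4, the lowest each without control 4 and the highest each without control 1. Signs of single genes turned: in first libraries Hist1h1b (-0.027), Hist1h1d (0.068), Hist1h3h (0.23) and Hist1h3a (0.21); with limma-voom Hist1h1d (0.086) and Hist1h3a (0.083); with the covariate Hist1h1d (0.037) and Hist1h3a (0.021); and with mutant 7 lacking its first library Hist1h1d (0.0020). Hist1h3h turned from -0.86 with all mice, a value with an SE of 0.67. Leaving out single mice gave ranges of -0.13 to 0.36 for Hist1h1b, -0.25 to 0.28 for Hist1h1d, -0.072 to 0.34 for Hist1h2bk, -1.21 to 0.58 for Hist1h3h, -0.25 to 0.21 for Hist1h3a, -0.014 to 0.42 for Hist1h4n, -0.091 to 0.45 for Hist2h4 and -0.054 to 0.12 for Hist1h4i. Without a sign change, it gave -0.46 to -0.079 for Hist1h1e, -0.47 to -0.036 for Hist1h1c, 0.31 to 0.69 for Hist1h2bj, 0.32 to 0.79 for Hist1h2bf, 0.24 to 0.69 for Hist1h2bm, 0.26 to 0.62 for Hist2h3b, 0.14 to 0.46 for Hist1h3c and 0.019 to 0.50 for Hist1h3g. Apart from the mouse or gene left out, the cause was not tested. No paired analysis was possible because mutants and controls share no mouse number.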
